A study of Mus musculus with 18 samples.

Results

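The taste receptor genes described here are the 38 genes whose symbol in the count table is Tas1r or Tas2r followed by a number, out of 27179 genes listed. They comprised 3 Tas1r genes, which encode subunits of the sweet and umami receptors, and 35 Tas2r genes, which encode bitter receptors. Of these, 33 (2 Tas1r and 31 Tas2r) had enough reads to enter the test. RNA-seq was made from thymic epithelial cells (TEC) of C57BL/6 mice labelled as Kat7 knockout (KO) or wildtype (WT). Kat7 encodes a histone acetyltransferase. Medullary cells with high surface MHC class II (mTEChi), medullary cells with low surface MHC class II (mTEClo) and cortical cells (cTEC) were sorted from each of 3 pools of KO mice (numbered 4, 5 and 6) and 3 pools of WT mice (numbered 1, 2 and 3). This gave 18 libraries in 6 groups: KO mTEChi, WT mTEChi, KO mTEClo, WT mTEClo, KO cTEC and WT cTEC, with 3 libraries each. The sources used here give neither the age of the mice nor the Kat7 allele or a Cre driver, and genotype cannot be told apart from any other difference between the 2 sets of pools.

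Bitter, sweet and umami receptors are G protein-coupled receptors of taste bud cells. They act through gustducin, phospholipase C beta, the inositol trisphosphate receptor and the cation channel Trpm5. TAS1R3 pairs with TAS1R2 to form the sweet receptor and with TAS1R1 to form the umami receptor, whereas each TAS2R recognises its own range of bitter compounds. Tuft cells use the same machinery outside the tongue, and a tuft-like mimetic cell that needs the transcription factor Pou2f3 is known in the thymic medulla of mice.

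The genes lie in a few clusters, and most bitter receptors are near neighbours (GRCm38.p6 coordinates, RefSeq). On chromosome 6, 18 Tas2r genes lie in chr6:132656957-133055793 and 6 in chr6:131629892-131690063. A group of 5 lies in chr6:42140936-42435461 and a group of 3 in chr6:40491238-40613310, while Tas2r118 stands alone at chr6:23969161-23970060. Tas2r119 is on chromosome 15, Tas2r134 on chromosome 2 and the 3 Tas1r genes are on chromosome 4. Every Tas2r gene is annotated as 1 exon in GENCODE vM21, while the Tas1r genes are spliced.

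Because paralogs can share reads, 75-base words, the length of a read, were compared between the members' transcripts and all other GENCODE vM21 transcripts. Of the 38 genes, 5 shared any word with another gene, so for the other members a perfectly matching read had 1 source among annotated transcripts. Tas1r2 shared 45.8% of its words with Gm21969, a gene model that overlaps 1510 of its exonic bases on the same strand. Tas2r117 shared 296 words (27.3%) with Tas2r109 or with 2 pseudogene models. Tas2r109 shared only 8 words (0.912%), so most of those of Tas2r117 were shared with the pseudogene models alone. Tas2r110 and Tas2r123 shared 4.96% each, through the longest run common to any pair of members, 120 bases, at chr6:132868603-132868722 (plus strand) in Tas2r110 and chr6:132847737-132847856 (plus strand) in Tas2r123. It is shown because it is where reads of a called and an uncalled gene could be exchanged.
Tas2r110 and Tas2r123: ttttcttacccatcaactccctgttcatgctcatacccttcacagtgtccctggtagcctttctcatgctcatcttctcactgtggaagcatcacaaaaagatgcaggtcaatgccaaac

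The sequence just upstream of the genes was read from RefSeq promoters (250 bases before to 50 after the annotated start, which need not be where transcription starts in these cells). Promoters were held for 34 of the 38 genes. The octamer, the letters bound by POU-domain factors such as Pou2f3 (ATGCAAAT, or ATTTGCAT on the other strand), occurred in 7 of the 34, or 20.6%, against 570 of 32851 promoters, or 1.74%. A TATA word (TATAAA, or TTTATA on the other strand) occurred in 29.4% of members' promoters and in 13.6% of all promoters. The 7 windows are printed 5′ to 3′ on the gene's strand, with the octamer in capitals, because they hold every match found among the members.
Tas2r118, chr6:23970161-23970200, minus strand: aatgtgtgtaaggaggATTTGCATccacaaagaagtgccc
Tas2r137, chr6:40491030-40491069, plus strand: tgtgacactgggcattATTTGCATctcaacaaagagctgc
Tas2r108, chr6:40493430-40493469, plus strand: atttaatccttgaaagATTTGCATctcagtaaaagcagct
Tas2r144, chr6:42215155-42215194, plus strand: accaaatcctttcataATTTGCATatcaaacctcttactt
Tas2r135, chr6:42405370-42405409, plus strand: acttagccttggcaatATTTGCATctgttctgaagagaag
Tas2r126, chr6:42434325-42434364, plus strand: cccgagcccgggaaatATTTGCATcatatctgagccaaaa
Tas2r107, chr6:131660362-131660399, minus strand: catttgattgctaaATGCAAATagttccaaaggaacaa

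In 6 of these genes the word read ATTTGCAT, with its first base between -194 (Tas2r126) and -124 (Tas2r118) relative to the annotated start. In Tas2r107 it read ATGCAAAT and began at -236. By cluster, the word was found in 2 of 3 genes near 40 Mb and 3 of 5 near 42 Mb of chromosome 6, and in 0 of 14 promoters held for the largest cluster. The match is a description of these letters only.

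Libraries held between 3554089 (WT mTEChi, pool 1) and 20054360 (KO cTEC, pool 6) counts. Kat7 averaged 2.33 ± 0.753 CPM in KO mTEChi against 54.2 ± 5.71 CPM in WT mTEChi, 1.23 ± 0.642 against 46.4 ± 9.93 CPM in KO and WT mTEClo, and 3.22 ± 0.949 against 72.2 ± 13.2 CPM in KO and WT cTEC (SD, n = 3 each). CPM are counts scaled by library size with TMM factors. Aire and Prss16 followed the sort labels. The mTEChi marker Aire averaged 676 and 1180 CPM in KO and WT mTEChi and at most 49.8 CPM in the other 4 groups. The cTEC marker Prss16 averaged 2080 and 813 CPM in KO and WT cTEC and at most 297 CPM in mTEC. The summed level of 8 mTEC markers was lower in every WT cTEC library than in any WT mTEClo library, whereas in KO these subsets overlapped. It averaged 9330 and 11300 CPM in KO and WT mTEChi, and 6350 and 8100 CPM in KO and WT mTEClo. In KO and WT cTEC it averaged 5850 and 6810 CPM. The WT libraries ran from 6510 to 7010 CPM in cTEC and from 7820 to 8240 CPM in mTEClo. The KO libraries ran from 5490 to 6490 CPM in cTEC and from 6040 to 6680 CPM in mTEClo.

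Reads of taste receptors were found in every group. Each of the 38 genes had a read in at least 1 of the 18 libraries and 17 had reads in all 18. With 1 read as the minimum, KO mTEChi libraries held 28 to 32 of the 38 and WT mTEChi libraries 28 to 33. KO mTEClo libraries held 34 to 35 against 35 to 36 in WT mTEClo. KO cTEC libraries held 23 to 24, against 32 to 36 in WT cTEC, and these ranges did not overlap. At equal depth (the expected number once each library is reduced to the count of the smallest) the means were 25.9 ± 0.7 in KO and 27.8 ± 0.6 in WT mTEChi, 31.9 ± 0.3 in KO and 34.5 ± 0.2 in WT mTEClo, and 17.1 ± 0.6 in KO and 32.9 ± 1.6 in WT cTEC. At that depth and with this minimum, fewer receptors were found in each KO library than in any WT library of the same subset. In mTEChi the direction depended on the minimum. With 5 reads at equal depth, KO mTEChi libraries held 15.2 to 16.1 receptors and WT mTEChi libraries 12.6 to 14, so KO lay above WT. In the other subsets KO stayed below WT, with 26.2 to 27.6 in KO and 31.5 to 32.0 in WT mTEClo, and 5.7 to 6.1 in KO and 28.0 to 29.2 in WT cTEC.

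**Figure D1:**
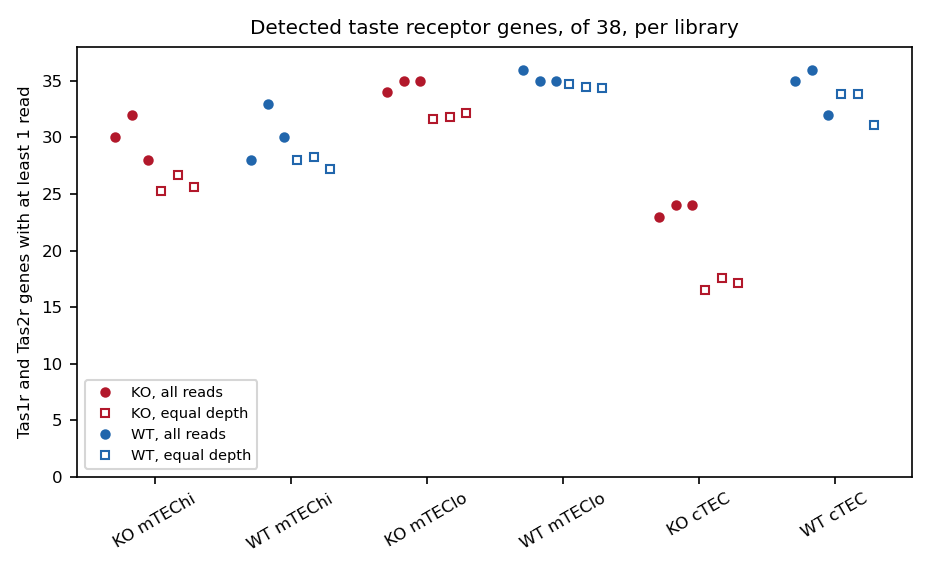
Number of the 38 Tas1r and Tas2r genes with at least 1 read in each library, from all reads (filled circles) and estimated for the depth of the smallest library (open squares), by group. KO cTEC libraries stand apart, at 23 to 24 genes against 32 to 36 in WT cTEC.

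The genes that did not enter the test were Tas1r2, the partner that makes the sweet receptor, and Tas2r122, Tas2r139, Tas2r143 and Tas2r144. All 5 had under 10 reads in every library. Tas1r2 had 3 and 5 reads over the 3 KO and 3 WT mTEChi libraries, 2 and 3 over KO and WT mTEClo, and 0 and 5 over KO and WT cTEC. Tas2r144 had 0 reads in KO cTEC and 15 in WT cTEC, at 0.509, 0.424 and 0 CPM in WT pools 1, 2 and 3. From reads summed over each group, it was at least 4.83-fold lower in KO cTEC against a floor of 3 reads per group. Its groups met at 0 in WT pool 3. Tas2r122 was read in each of the 3 WT mTEClo libraries, at 0.102, 0.259 and 0.149 CPM, and Tas2r144 in each of the 3 KO mTEClo libraries, at 0.0676, 0.0563 and 0.102 CPM. Tas2r143 was read in 1 of the 18 libraries, KO mTEClo of pool 5, with 4 reads. Amplified libraries without molecular identifiers were used, so floors and intervals cover counting error only.

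Levels per gene length (RPKM, CPM divided by gene length in kilobases) put Tas2r105 and Tas2r108 near the top of every group. Tas2r105 (Entrez 57252, chr6:131686561-131687463), which in mice is required for the taste of cycloheximide, averaged 26.6 ± 6.89 and 11.8 ± 2.12 RPKM in KO and WT mTEChi, 108 ± 15.5 and 97.5 ± 15.6 RPKM in KO and WT mTEClo, and 5.12 ± 0.936 and 42.3 ± 5.26 RPKM in KO and WT cTEC (SD, n = 3). It ranked first in the 3 WT groups and second in the 3 KO groups. Tas2r108 (Entrez 57253, chr6:40493592-40494485), a receptor that responds to denatonium, averaged 28.7 ± 2.93 and 8.42 ± 3.17 RPKM in KO and WT mTEChi, 120 ± 9.17 and 37.5 ± 9.99 RPKM in KO and WT mTEClo, and 5.76 ± 1.48 and 21.2 ± 3.67 RPKM in KO and WT cTEC. It led each KO group, but its libraries overlapped those of Tas2r105 in all 3. Tas2r138 (Entrez 387513, chr6:40612315-40613310), the mouse counterpart of the human phenylthiocarbamide receptor, ranked second in WT mTEClo at 61.0 ± 17.4 RPKM and in WT cTEC at 23.6 ± 5.30 RPKM. In KO mTEClo and KO cTEC it averaged 18.0 ± 1.56 and 0.794 ± 0.183 RPKM and ranked 9th and 8th. In KO and WT mTEChi it averaged 1.86 ± 0.402 and 3.88 ± 2.66 RPKM and ranked 15th and 3rd.

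In WT mTEClo the order was Tas2r105, Tas2r138, Tas2r118, Tas2r108, Tas2r104, Tas2r115, Tas2r129 and Tas2r102, and the libraries of each neighbour in that order overlapped. In KO mTEClo it was Tas2r108, Tas2r105, Tas2r113, Tas2r115, Tas2r126, Tas2r104, Tas2r118 and Tas2r129. There, Tas2r113 (53.6 ± 4.33 RPKM) lay below all libraries of Tas2r105 and above all of Tas2r115 (39.7 ± 4.13 RPKM). In WT cTEC the leading genes were Tas2r105, Tas2r138, Tas2r108, Tas2r104 and Tas2r118, and in KO cTEC Tas2r108, Tas2r105, Tas2r113, Tas2r115 and Tas2r104. Tas1r3 averaged 6.89 ± 1.11 and 1.66 ± 0.343 RPKM in KO and WT mTEChi and 18.0 ± 2.52 and 5.37 ± 1.26 RPKM in KO and WT mTEClo. By rank among the 38 genes it stood 6th and 11th in KO and WT mTEChi, 10th and 25th in KO and WT mTEClo, and 7th and 17th in KO and WT cTEC.

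**Figure D2:**
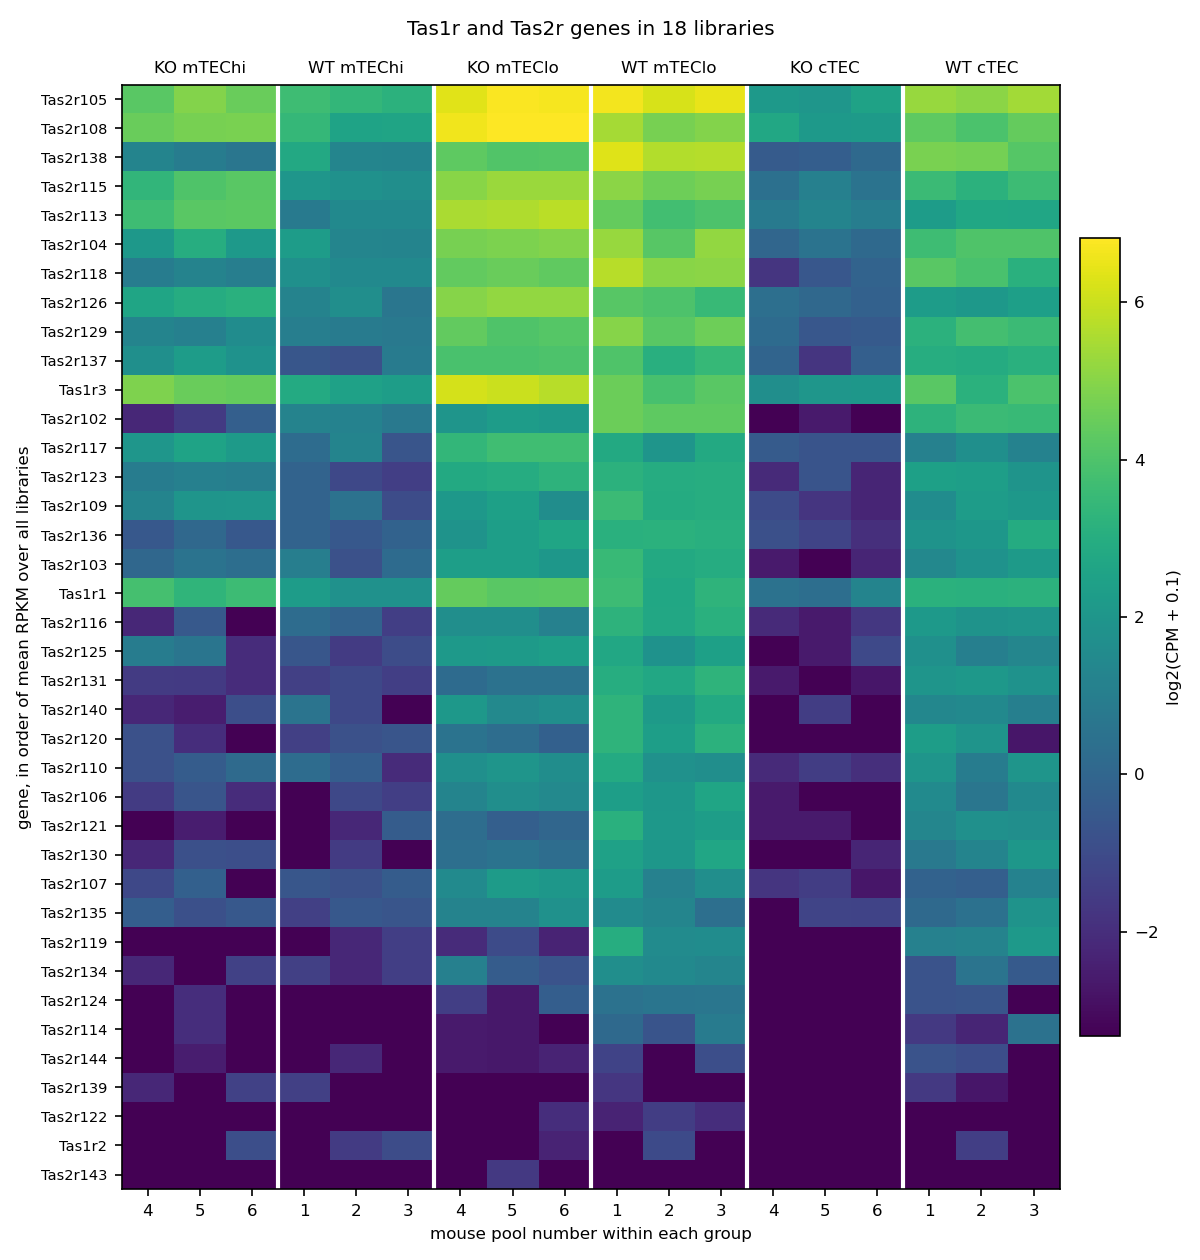
Heat map of log2(CPM + 0.1) of all 38 genes (rows, in order of mean RPKM over the libraries) in the 18 libraries (columns, by group and mouse pool), with the colour scale at the right. The mTEClo columns are the brightest, and most rows of KO cTEC are darker than those of WT cTEC.

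Summed over the 35 genes, bitter receptor reads came to 98.7, 139 and 127 CPM in KO mTEChi against 62.6, 47.4 and 42 CPM in WT mTEChi. In mTEClo they came to 457, 512 and 518 CPM in KO and 599, 390 and 461 CPM in WT. In cTEC they came to 21.3, 19.7 and 20.7 CPM in KO against 216, 211 and 222 CPM in WT. The KO libraries therefore lay above WT in mTEChi, within the range of WT in mTEClo and below WT in cTEC. The 3 Tas1r genes together averaged 36.5 ± 5.65 and 9.91 ± 1.74 CPM in KO and WT mTEChi, 82.8 ± 9.87 and 28.4 ± 7.14 CPM in KO and WT mTEClo, and 5.28 ± 0.932 and 23.2 ± 5.07 CPM in KO and WT cTEC. Unlike the bitter receptor sum, the Tas1r sum in mTEClo was higher in each KO library than in any WT library. Sums do not depend on how reads were split between members, but can on reads shared with gene models outside the list (Tas2r117 and Tas1r2), and no test was made on them.

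**Figure D3:**
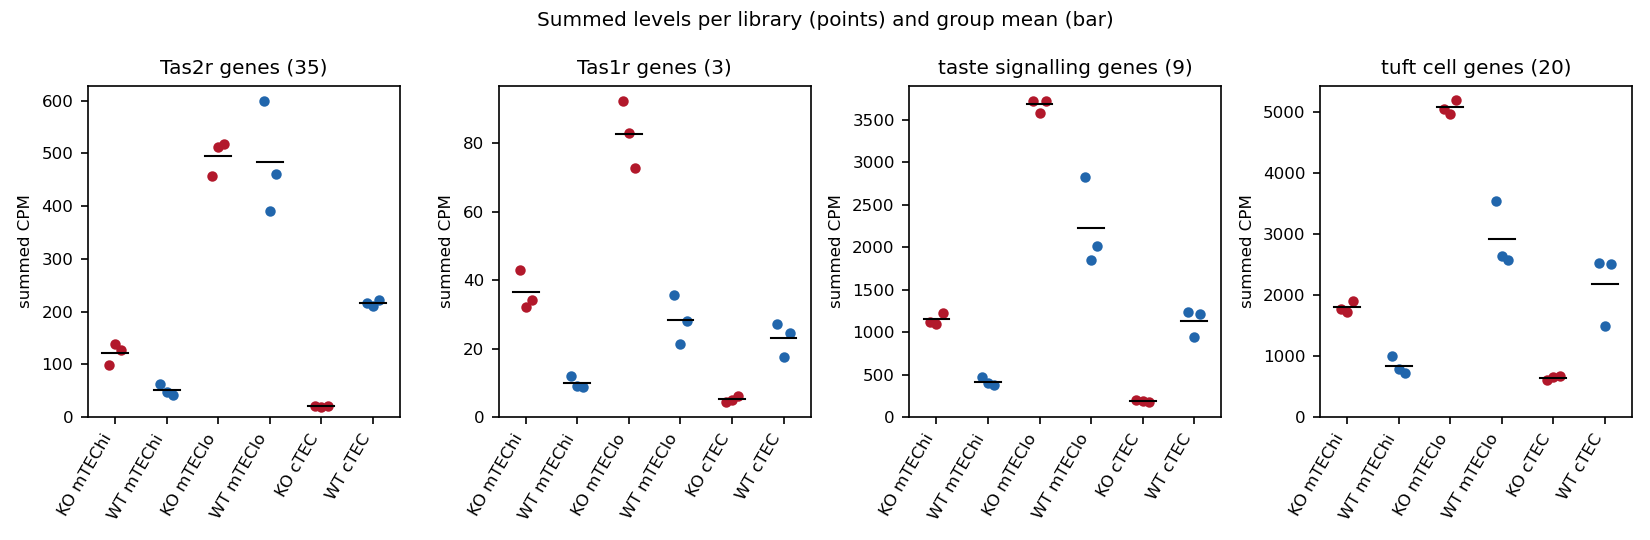
Summed CPM of the 35 Tas2r genes, the 3 Tas1r genes, 9 genes of taste signalling and 20 genes of tuft cells in each library (points) with the group mean (bar), by group. In mTEClo the Tas2r sum of KO (mean 496) lies within the WT libraries (390 to 599), while the other 3 sums are higher in KO.

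In mTEChi, 12 of the 33 tested receptors rose in KO and 1 fell. Among all 19364 genes tested, 36.4% were called (17.1% higher, 19.3% lower; edgeR quasi-likelihood test, Benjamini-Hochberg adjusted p below 0.05). The median log2 fold change of the 33 was 0.43, against -0.11 for all genes. In bulk libraries, a change in the number of cells of a type and a change in RNA per cell cannot be told apart. Tas1r3, the subunit common to the sweet and umami receptors, had 28.7, 22.5 and 21.5 CPM in KO mTEChi against 7.20, 5.46 and 4.88 CPM in WT mTEChi. Tas1r1, the umami subunit, had 14.2, 9.79 and 12.4 CPM in KO against 4.71, 3.45 and 3.39 CPM in WT. For both, all KO libraries lay above all WT libraries, with log2 fold changes of 2.09 (SE 0.27, adjusted p = 8.98e-06) for Tas1r3 and 1.69 (SE 0.28, adjusted p = 1.34e-04) for Tas1r1. The annotated exons of Tas1r3 overlap those of Dvl1 on the opposite strand by 36 bases, and Dvl1 moved the other way in mTEChi (71.5 ± 18.7 CPM in KO and 98.5 ± 4.13 CPM in WT, log2 fold change -0.46, adjusted p = 0.0219). Dvl1 was called lower in KO mTEClo as well (-0.44), where Tas1r3 rose. In cTEC both genes fell in KO, Dvl1 by -1.44 and Tas1r3 by -1.94. A part of shared reads in these values was not tested.

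Of the bitter receptors that rose in KO mTEChi, Tas2r113 changed most. It had 12.8, 18.7 and 19.0 CPM in KO mTEChi against 1.66, 2.73 and 2.71 CPM in WT mTEChi (log2 fold change 2.76, SE 0.25, adjusted p = 2.05e-07). Tas2r115 had 10.2, 16 and 18.5 CPM in KO against 3.88, 3.45 and 3.12 CPM in WT, and Tas2r108 had 22.7, 26.6 and 27.7 CPM in KO against 10.8, 5.82 and 5.97 CPM in WT. Their log2 fold changes were 2.12 (SE 0.26) and 1.86 (SE 0.24), and in each of the 3 genes the groups did not overlap. Tas2r105, the most abundant, rose less, with 18.6, 30.8 and 22.5 CPM in KO against 12.7, 10.3 and 8.95 CPM in WT (log2 fold change 1.21, SE 0.21, adjusted p = 1.93e-04). Tas2r126 had 6.10, 7.67 and 8.54 CPM in KO against 2.22, 3.09 and 1.49 CPM in WT, and Tas2r137 had 3.23, 4.71 and 3.53 CPM in KO against 0.554, 0.475 and 1.76 CPM in WT. Tas2r117 had 3.94, 5.77 and 4.56 CPM in KO against 1.11, 2.26 and 0.542 CPM in WT. These 3 rose by log2 fold changes of 1.69, 1.98 and 1.82, again with no overlap. The fold change of Tas2r137 ran between 1.57 and 2.94 and that of Tas2r117 between 1.41 and 2.68 when single libraries were left out, the highest value without WT pool 3 for Tas2r137 and without WT pool 2 for Tas2r117, and both stayed called.

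The last bitter receptors called higher in KO mTEChi were less abundant or less separated. Tas2r123 had 1.79, 2.05 and 1.91 CPM in KO against 0.831, 0.356 and 0.271 CPM in WT (log2 fold change 2.16, adjusted p = 0.00297), and Tas2r109 had 2.27, 3.8 and 3.97 CPM in KO against 0.831, 1.31 and 0.407 CPM in WT (1.94, adjusted p = 0.00362). Tas2r109 reached 2.57 without WT pool 2. Tas2r104 had 4.18, 7.97 and 4.27 CPM in KO and 4.71, 2.38 and 2.30 CPM in WT, so its groups overlapped. Its call (log2 fold change 0.96, adjusted p = 0.0400) was lost without WT pool 2, WT pool 3 or KO pool 5, with adjusted p up to 0.256. The receptor that fell was Tas2r102, with 0.120, 0.228 and 0.736 CPM in KO against 2.22, 2.14 and 1.63 CPM in WT (log2 fold change -2.57, SE 0.47, adjusted p = 3.85e-04; -3.33 without KO pool 6). It rests on 9 reads in KO and 38 in WT.

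The other 20 tested receptors did not pass in mTEChi, and many had few reads there. Tas2r138 had 2.27, 1.82 and 1.47 CPM in KO and 6.92, 2.38 and 2.30 CPM in WT, and Tas2r118 had 1.79, 2.20 and 1.91 CPM in KO and 3.32, 2.73 and 2.71 CPM in WT. In both genes all KO libraries lay below all WT libraries, with log2 fold changes of -0.86 (adjusted p = 0.0943) and -0.52 (adjusted p = 0.302). Tas2r119, Tas2r114 and Tas2r124 had at most 3 reads over each group, so no fold is given for them. Tas2r130 had 10 reads in KO and 2 in WT, a ratio of 3.42 with a 95% interval of 0.730 to 32.1 (exact binomial).

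In mTEClo the receptors moved in both directions. Of the 33 tested, 6 rose and 11 fell in KO, against 18.9% higher and 15.8% lower among all genes (34.7% called). The median log2 fold change of the 33 was -0.79, against 0.01 for all genes. Fitting only the KO and WT mTEClo libraries gave 6 higher and 17 lower. The 6 that rose there were all among the 12 that rose in mTEChi. Tas1r3 had 71.3, 64.4 and 53.7 CPM in KO mTEClo against 23.5, 14.6 and 18.4 CPM in WT mTEClo (log2 fold change 1.74, SE 0.23, adjusted p = 7.7e-06). Tas1r1 had 21.1, 18.8 and 18.9 CPM in KO against 12.3, 6.48 and 9.52 CPM in WT (1.05, SE 0.24, adjusted p = 0.00219). Both subunits of the umami receptor were thus higher in every KO library than in any WT library.

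Among bitter receptors, Tas2r108 had 98.2, 111 and 113 CPM in KO mTEClo against 43.5, 26.3 and 30.8 CPM in WT mTEClo, and Tas2r113 had 46.6, 48.4 and 54.3 CPM in KO against 21.1, 13.5 and 15.8 CPM in WT. All KO libraries of both lay above the highest WT library, with log2 fold changes of 1.68 (SE 0.20) and 1.56 (SE 0.20). Tas2r126 had 31.6, 35.6 and 35.9 CPM in KO against 18.1, 15.9 and 11.2 CPM in WT (1.18, SE 0.21, adjusted p = 2.38e-04). Tas2r117 had 10.4, 13.1 and 12.9 CPM in KO against 7.05, 3.76 and 6.99 CPM in WT (1.03, SE 0.33, adjusted p = 0.0186). Tas2r117 is the bitter receptor with the most words in common with other transcripts, most of them in pseudogene models. Its call was lost without WT pool 2, KO pool 5 or KO pool 6, with adjusted p up to 0.0983.

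The receptors that fell in KO mTEClo included abundant ones. Tas2r138 had 19.7, 16.8 and 17.3 CPM in KO mTEClo against 80.8, 50.6 and 50.9 CPM in WT mTEClo (log2 fold change -1.76, SE 0.25, adjusted p = 2.09e-05). Tas2r118, the mouse counterpart of the human salicin receptor, had 20.8, 22.6 and 20.2 CPM in KO against 52.4, 32.6 and 32.9 CPM in WT (-0.89, SE 0.26, adjusted p = 0.00992), a call that was lost without WT pool 1 (adjusted p = 0.0916). Tas2r102 had 3.79, 4.79 and 4.44 CPM in KO against 23.3, 19.7 and 19.9 CPM in WT (-2.27, SE 0.28). No library of KO reached the lowest WT library in these genes. Tas2r131 had 1.08, 1.30 and 1.33 CPM in KO against 7.97, 6.73 and 9.52 CPM in WT, and Tas2r121 had 1.15, 0.732 and 0.918 CPM in KO against 8.68, 4.14 and 4.91 CPM in WT. Tas2r120 had 1.35, 1.13 and 0.765 CPM in KO against 9.60, 5.05 and 9.07 CPM in WT. These genes fell by 2.69, 2.66 and 2.87 on the log2 scale. Tas2r130 had 1.22, 1.35 and 1.12 CPM in KO against 5.52, 4.01 and 6.40 CPM in WT (-2.10), and Tas2r116 had 3.11, 3.15 and 2.09 CPM in KO against 9.30, 6.73 and 8.48 CPM in WT (-1.55).

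The largest falls were in rare receptors. Tas2r119, the single receptor on chromosome 15, had 0.135, 0.394 and 0.102 CPM in KO mTEClo against 7.97, 2.85 and 2.97 CPM in WT mTEClo (log2 fold change -4.40, SE 0.67, adjusted p = 1.04e-04; between -5.19 without KO pool 5 and -3.72 without WT pool 1). Tas2r114 had 2 reads over the KO libraries and 26 over the WT libraries, a ratio of 0.0357 with a 95% interval of 0.00411 to 0.143. Both Tas2r119 and Tas2r114 entered the test only through reads in WT libraries, so their falls are not independent of that filter. Tas2r109 was opposite to its direction in mTEChi, with 4.19, 5.35 and 3.01 CPM in KO mTEClo against 11.8, 7.51 and 7.88 CPM in WT mTEClo (-1.12, SE 0.36, adjusted p = 0.0195). Leaving out WT pool 1, KO pool 4 or KO pool 6 ended the call, with adjusted p up to 0.108.

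Among the 16 that did not pass in mTEClo were several abundant receptors. Tas2r105 had 82.0, 108 and 104 CPM in KO and 101, 73.0 and 89.8 CPM in WT, and Tas2r104 had 26.5, 28.4 and 30.6 CPM in KO and 38.1, 17.9 and 36.0 CPM in WT. Tas2r115 had 32.6, 39.4 and 39.2 CPM in KO and 33.4, 24.1 and 26.5 CPM in WT. The groups of these genes overlapped, with log2 fold changes of 0.15, -0.10 and 0.40. Tas2r129 (-0.44), Tas2r137 (0.35) and Tas2r123 (-0.02) overlapped as well, whereas Tas2r136 (-0.79, adjusted p = 0.0678), Tas2r103 (-0.89, adjusted p = 0.0572) and Tas2r106 (-0.89, adjusted p = 0.116) were lower in each KO library without passing.

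In cTEC, all 33 tested receptors fell in KO, against 26.7% lower and 22.3% higher among all genes (49% called). Tas2r119, Tas2r114 and Tas2r124 had enough reads to enter the test only in WT libraries. Their falls in KO, which the count of 33 includes, are therefore not independent of the filter on reads. The median log2 fold change was -4.08 as fitted and -3.94 with genes at 0 reads set at their bound, against -0.02 for all genes. The smallest falls were in the genes that rose in both kinds of mTEC. Tas2r113 had 1.72, 2.27 and 1.89 CPM in KO cTEC against 4.8, 6.53 and 6.23 CPM in WT cTEC (-1.58, SE 0.23, adjusted p = 1.23e-05). Tas2r108 had 6.67, 4.21 and 4.57 CPM in KO against 19.9, 15.3 and 21.6 CPM in WT (-1.88, SE 0.22). Tas1r3 had 3.17, 3.88 and 4.05 CPM in KO against 18.6, 8.75 and 15.5 CPM in WT (-1.94, SE 0.25), and Tas2r117 (-2.12), Tas2r126 (-2.26) and Tas1r1 (-2.45) came next. Even in these genes no KO library overlapped WT.

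Among the other abundant receptors of WT cTEC, the size of the fall in KO cTEC varied. Tas2r105 had 4.36, 3.95 and 5.57 CPM in KO cTEC against 38.1, 33.5 and 43.0 CPM in WT cTEC (log2 fold change -3.03, SE 0.20, adjusted p = 4.13e-10). Tas2r138 had 0.660, 0.712 and 0.999 CPM in KO against 27.1, 26.0 and 17.5 CPM in WT (-4.86, SE 0.34), and Tas2r118 had 0.198, 0.583 and 0.841 CPM in KO against 18.5, 15.1 and 8.68 CPM in WT (-4.63, SE 0.35). Tas2r104, Tas2r115 and Tas2r129 fell by 3.76, 2.85 and 3.94 on the log2 scale. For genes that kept over 3 reads in KO cTEC, the fitted falls thus lay between -1.58 for Tas2r113 and -4.86 for Tas2r138.

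Other receptors were near or at 0 reads in KO cTEC. Tas2r102 had 1 read over the 3 KO cTEC libraries and 566 over the 3 WT cTEC libraries, a ratio of 0.00183 with a 95% interval of 4.62e-05 to 0.0102. The ratios were 0.00885 for Tas2r106, 0.0105 for Tas2r131, 0.0135 for Tas2r121, 0.0147 for Tas2r130 and 0.0168 for Tas2r103, each from 1 to 3 reads in KO. With 0 reads in KO cTEC and a floor of 3 reads over the group, Tas2r119 was at least 48.6-fold lower, Tas2r120 44.4-fold, Tas2r134 14.5-fold, Tas2r114 9.66-fold and Tas2r124 5.47-fold. The bound of Tas2r114 rests mostly on WT pool 3, which held 25 of the 30 WT reads (0.218, 0.106 and 1.33 CPM in pools 1, 2 and 3), and its fitted value was -4.01 without that library, against -5.84 with it. Tas2r120 was uneven in WT cTEC, with 4.88 and 3.71 CPM in pools 1 and 2 and 0.0532 CPM in pool 3. Tas2r124 was at 0 in WT pool 3 as well, so its groups met at 0. Among genes with over 3 reads in KO, leaving out 1 library moved the fitted log2 fold change most for Tas2r140 (-7.88 without KO pool 5), Tas2r125 (-5.89 without KO pool 6), Tas2r123 (-5.20 without KO pool 5), Tas2r109 (-4.67 without KO pool 4), Tas2r135 (-2.34 without WT pool 3) and Tas2r107 (-2.17 without WT pool 3), and all of them stayed called.

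**Figure D4:**
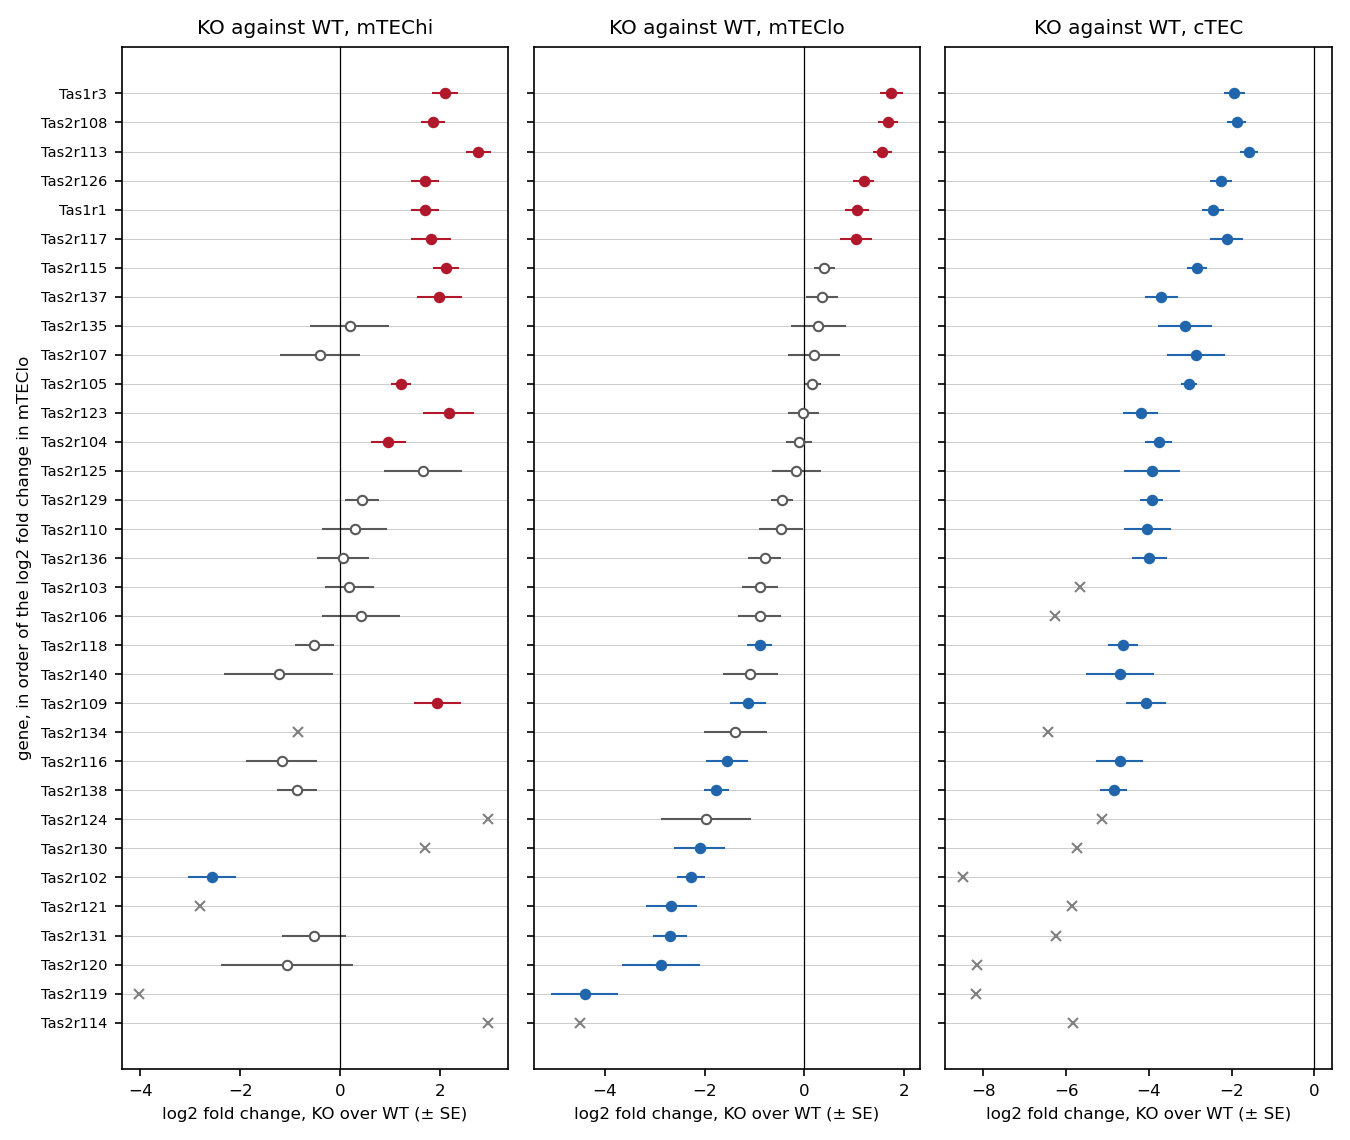
Log2 fold change of KO over WT (± SE) of the 33 tested genes in mTEChi, mTEClo and cTEC, in the order of the mTEClo values. Red and blue mark genes called higher and lower at adjusted p below 0.05, open circles genes that were not called, and crosses fitted values of genes with 3 or fewer reads over a group, which are no measure of size. In cTEC every value is below 0, and the genes at the top in mTEClo are also toward the top in cTEC. The lowest genes in mTEClo are crosses in cTEC, so how far they fell there cannot be read from their place.

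The order of the receptors by KO effect was closest between mTEClo and cTEC. Across the 22 genes with over 3 reads in every group, the log2 fold changes of mTEClo and cTEC had a Spearman rho of 0.95, those of mTEClo and mTEChi 0.69 and those of mTEChi and cTEC 0.62 (across genes, which are not independent replicates; libraries differ between subsets, but the pools of mice are the same). Over all 33 genes the values were 0.93, 0.53 and 0.58. Of the 17 receptors called in mTEClo, 6 were higher in both kinds of mTEC, Tas2r102 was lower in both, Tas2r109 was higher in mTEChi and lower in mTEClo, and 9 were lower in mTEClo without a call in mTEChi. The other 5 that rose in mTEChi were not called in mTEClo.

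The make-up of the bitter receptor reads of a library therefore differed between genotypes in every subset, whatever their sum. Tas2r108 made up 21.3 ± 1.93% of Tas2r reads in KO mTEChi against 14.6 ± 2.51% in WT mTEChi, 21.7 ± 0.223% against 6.90 ± 0.323% in KO and WT mTEClo, and 24.9 ± 5.58% against 8.74 ± 1.33% in KO and WT cTEC (SD, n = 3). Tas2r113 made up 13.8 ± 1.04% and 4.96 ± 2.02% in KO and WT mTEChi, 10.1 ± 0.534% and 3.47 ± 0.0572% in KO and WT mTEClo, and 9.57 ± 1.74% and 2.71 ± 0.442% in KO and WT cTEC. Tas2r138 went the other way, at 1.59 ± 0.619% and 7.19 ± 3.36% in KO and WT mTEChi, 3.65 ± 0.577% and 12.5 ± 1.30% in KO and WT mTEClo, and 3.85 ± 0.890% and 10.9 ± 2.63% in KO and WT cTEC. The share of Tas2r105 was 19.6 ± 2.33% and 21.1 ± 0.735% in KO and WT mTEChi, 19.7 ± 1.60% and 18.4 ± 1.34% in KO and WT mTEClo, and 22.5 ± 3.89% and 17.6 ± 1.77% in KO and WT cTEC. Its libraries overlapped in both kinds of mTEC, while in cTEC every KO library lay above every WT library.

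Grouped by their call in mTEClo, the 4 bitter receptors that rose there made up 41.1 ± 0.649% of Tas2r reads in KO and 14.8 ± 0.642% in WT mTEClo, and the 11 that fell 11.2 ± 1.24% in KO and 35.4 ± 1.58% in WT. This follows from how they were grouped. In the cTEC libraries, which the grouping did not use, the 4 made up 42 ± 5.44% in KO and 14.8 ± 1.06% in WT, and the 11 made up 8.95 ± 2.06% in KO and 33.4 ± 4.82% in WT. In mTEChi the shares were 45.2 ± 2.49% in KO and 26.7 ± 2.30% in WT for the 4, and 7.12 ± 0.344% in KO and 22.7 ± 1.15% in WT for the 11. Within each subset, KO and WT libraries did not overlap in these shares. The cTEC and mTEClo libraries share pools of mice, and no test was made.

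**Figure D5:**
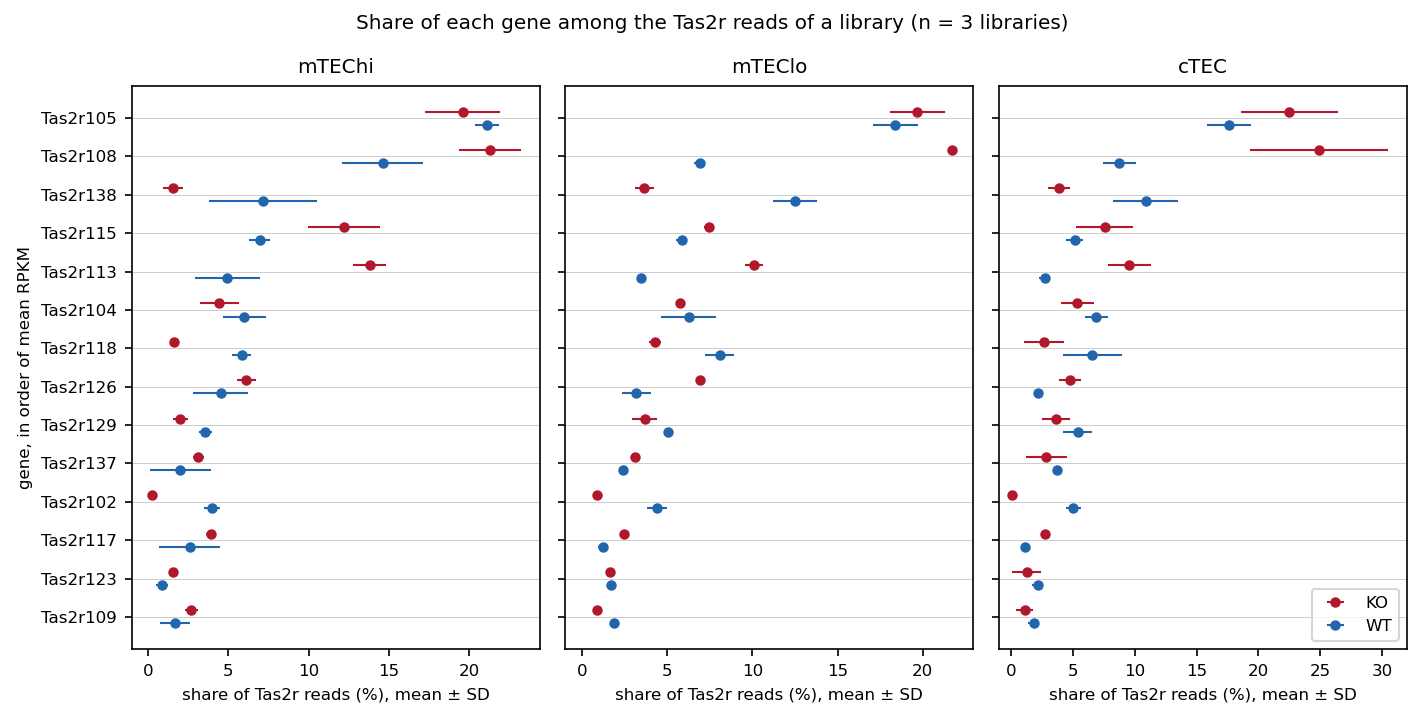
Share of Tas2r reads taken by the 14 most abundant Tas2r genes by mean RPKM (mean ± SD of 3 libraries) in KO (red) and WT (blue) mTEChi, mTEClo and cTEC. In each subset Tas2r108 and Tas2r113 take a larger share in KO and Tas2r138, Tas2r118 and Tas2r102 a smaller one, while the points of Tas2r105 lie close together in mTEClo.

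Calls were spread over the clusters, and neighbours differed. In mTEClo the largest cluster of chromosome 6, with 17 tested genes, held 2 that rose (Tas2r113 and Tas2r117) and 6 that fell, with log2 fold changes between -2.87 and 1.56. The cluster that holds Tas2r105 had 0 that rose and 2 that fell of 6. Near 40 Mb, Tas2r108 rose, Tas2r138 fell and Tas2r137 was not called, and both tested Tas1r genes rose. Of the genes with an octamer upstream, Tas2r108 and Tas2r126 rose, Tas2r118 fell and Tas2r137, Tas2r135 and Tas2r107 were not called in mTEClo.

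Whether the KO effect differed by subset was tested in the same fit. Between mTEChi and mTEClo, 6 of the 33 receptors had a higher KO effect in mTEChi and 0 a lower one, against 6.72% and 6.78% of all genes (13.5% called). They were Tas2r109 (log2 difference 3.06, SE 0.59, adjusted p = 0.00145), Tas2r115 (1.71, SE 0.33), Tas2r123 (2.19, SE 0.61), Tas2r113 (1.19, SE 0.32), Tas2r105 (1.06, SE 0.27) and Tas2r130 (3.78, SE 1.14, adjusted p = 0.0312). For Tas2r105 the effects were 1.21 in mTEChi and 0.15 in mTEClo. Tas2r130 rests on 2 reads in WT mTEChi and lost its call without WT mTEChi pool 1 or 3, WT mTEClo pool 3, KO mTEChi pool 5 or 6, or KO mTEClo pool 6 (adjusted p up to 0.121), and Tas2r123 lost it without WT mTEChi pool 2 or 3 (adjusted p up to 0.085). The KO effect was higher than in cTEC for 28 receptors in mTEChi (18.3% of all genes higher and 13.2% lower, 31.5% called) and for 29 in mTEClo (16.4% of all genes higher and 9.54% lower, 26% called), and lower for 0 in both. Tas2r105 differed by 4.25 (SE 0.29) between mTEChi and cTEC and by 3.19 (SE 0.26) between mTEClo and cTEC.

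Between subsets of 1 genotype, mTEClo held the highest receptor levels. In KO, 29 of 33 receptors were lower in mTEChi than in mTEClo and 0 were higher (22.4% of all genes lower; 45.3% called), and in WT 33 were lower and 0 higher (26.7% of all genes lower; 59.3% called). Tas2r124 entered the test only through WT mTEClo libraries, so its lower level in WT mTEChi is not independent of the filter on reads. The median log2 fold changes were -2.21 in KO, against -0.05 for all genes, and -3.56 in WT, against 0.08 for all genes. Tas2r105 had 18.6 to 30.8 CPM in KO mTEChi and 82.0 to 108 CPM in KO mTEClo (-2.02), and 8.95 to 12.7 CPM in WT mTEChi and 73.0 to 101 CPM in WT mTEClo (-3.08). Tas1r1 differed least among the genes called in both, at -0.70 in KO and -1.34 in WT. Its call in KO (adjusted p = 0.0219) was lost without KO mTEClo pool 4, KO mTEChi pool 5 or KO mTEChi pool 6, with adjusted p up to 0.121. Tas2r109, which had opposite calls in KO against WT, differed by -0.32 (adjusted p = 0.516) between KO mTEChi and KO mTEClo, and by -3.38 in WT.

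The place of cTEC was reversed between genotypes. In KO, 23 receptors were higher in mTEChi than in cTEC and 0 were lower (34% of all genes higher; 62.4% called), whereas in WT 0 were higher and 29 lower (28.5% of all genes lower; 64.4% called). Tas2r108 was higher in KO mTEChi than in KO cTEC by 2.32 on the log2 scale, and differed by -1.42 between WT mTEChi and WT cTEC. Of the 33, 32 were higher in mTEClo than in cTEC in KO (21.2% of all genes; 37% called) and 15 in WT (13% of all genes; 27.4% called), and 0 were lower in either. The count of 15 fell to 9 without WT mTEClo of pool 1. In WT, Tas2r126 (1.68), Tas2r113 (1.52) and Tas2r118 (1.49) were among those higher in mTEClo, while Tas1r1 (0.11, adjusted p = 0.79) and Tas1r3 (0.41, adjusted p = 0.195) were not called.

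Genes that act after the receptors were followed in a list of taste signalling genes, of which 9 were in the table. In KO against WT, 5 of 9 rose and 0 fell in mTEChi, 6 rose and 0 fell in mTEClo, and 0 rose and 7 fell in cTEC. Of all genes tested, 17.1% rose and 19.3% fell in mTEChi. The shares were 18.9% and 15.8% in mTEClo, and 22.3% and 26.7% in cTEC. The medians were 1.23, 0.73 and -2.64 on the log2 scale. Trpm5, the channel that depolarises the cell, averaged 178 ± 18.5 and 44.2 ± 7.52 CPM in KO and WT mTEChi (log2 fold change 2.02, SE 0.22) and 25.6 ± 1.94 and 232 ± 71.8 CPM in KO and WT cTEC (-3.18). Gnat3, the alpha subunit of gustducin, averaged 883 ± 33.2 and 740 ± 202 CPM in KO and WT mTEClo (0.25, adjusted p = 0.204) but rose in mTEChi, at 227 ± 13.7 in KO and 97.3 ± 10.8 CPM in WT (1.23, adjusted p = 9.15e-06). Plcb2, the phospholipase, rose by 1.74 in mTEChi and 1.00 in mTEClo, and Gnb3, the beta subunit, by 1.61 and 0.73.

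Set against signalling reads of the same library, Tas2r reads came to 10.6 ± 1.96% and 12 ± 1.14% in KO and WT mTEChi, 13.5 ± 1.05% and 21.7 ± 1.07% in KO and WT mTEClo, and 10.9 ± 0.723% and 19.4 ± 2.72% in KO and WT cTEC (SD, n = 3). The ratio was lower in every KO library than in any WT library of mTEClo and cTEC, and overlapped in mTEChi. Tas1r reads came to 2.25 ± 0.274% of signalling reads in KO mTEClo against 1.27 ± 0.116% in WT mTEClo, and to 2.83 ± 0.694% in KO cTEC against 2.03 ± 0.167% in WT cTEC. In mTEChi they came to 3.2 ± 0.555% in KO and 2.36 ± 0.15% in WT, where the lowest WT library held 43 Tas1r reads. The Tas1r ratio to signalling reads was thus higher in every KO library than in any WT library of the same subset. Set against tuft gene reads, Tas1r reads came to 2.03 ± 0.334% in KO and 1.18 ± 0.0313% in WT mTEChi. In mTEClo they came to 1.63 ± 0.218% in KO and 0.969 ± 0.138% in WT. Every KO library lay above every WT library in both. In cTEC they came to 0.815 ± 0.106% in KO and 1.08 ± 0.0916% in WT, and every KO library lay below every WT library.

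Of 20 tuft cell genes, 15 rose and 0 fell in KO mTEChi, 14 rose and 0 fell in KO mTEClo, and 0 rose and 19 fell in KO cTEC. For all genes tested, 17.1% rose and 19.3% fell in mTEChi. The shares were 18.9% and 15.8% in mTEClo, and 22.3% and 26.7% in cTEC. Pou2f3, which tuft cells need, averaged 127 ± 1.81 and 48.3 ± 14.4 CPM in KO and WT mTEChi (log2 fold change 1.42), 204 ± 3.40 and 100 ± 20.6 CPM in KO and WT mTEClo (1.02) and 18.6 ± 3.63 and 72.9 ± 16.7 CPM in KO and WT cTEC (-1.97). It is named here because of the octamer search, outside the rule for named genes. By that rule Alox5, the lipoxygenase of leukotriene synthesis, rose by 2.68 in mTEChi and 1.13 in mTEClo and fell by 2.01 in cTEC, and Avil, a tuft cell actin-binding protein, had values of 2.39, 1.39 and -3.55. Ptgs1 and Sh2d7 moved in the same directions. As a share of tuft gene reads, Tas2r reads came to 6.74 ± 1.25% in KO and 6.03 ± 0.229% in WT mTEChi, where libraries overlapped, to 9.77 ± 0.644% in KO and 16.5 ± 1.57% in WT mTEClo and to 3.19 ± 0.246% in KO and 10.5 ± 3.11% in WT cTEC.

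Genes for carrying taste receptors to the membrane were followed in a list of 3, of which 2 were tested. Rtp4, a receptor transporter that is also induced by interferon, rose in KO mTEChi (60.7 ± 7.76 and 39.1 ± 7.62 CPM in KO and WT, log2 fold change 0.63, adjusted p = 0.00207), fell in KO mTEClo (232 ± 13.7 and 389 ± 14.2 CPM, -0.74) and was not called in cTEC (0.16). Reep2, which enhances sweet receptor function, fell in mTEChi (-1.71) and mTEClo (-1.64) and in cTEC (-1.47, adjusted p = 0.0372). Rtp3 did not pass the filter. Among 6 tested receptors of other chemosensory ligands, 1 rose and 1 fell in mTEChi, 2 rose and 0 fell in mTEClo, and 0 rose and 3 fell in cTEC. The shares of all genes that rose and fell were 17.1% and 19.3% in mTEChi. They were 18.9% and 15.8% in mTEClo, and 22.3% and 26.7% in cTEC. The succinate receptor Sucnr1 rose by 1.67 in mTEChi and 1.63 in mTEClo and fell by 2.02 in cTEC, and the short-chain fatty acid receptor Ffar2 rose in mTEClo (1.45). Gprc6a fell in mTEChi, with 2 reads in KO and 44 in WT. Of 7 sour and salt taste genes, 1 rose and 2 fell in mTEChi, 1 rose and 1 fell in mTEClo, and 2 rose and 2 fell in cTEC. With so few genes, these counts lie near the shares of all genes. Scnn1a, a subunit of the epithelial sodium channel, rose in each subset (0.74, 1.49 and 0.72 in mTEChi, mTEClo and cTEC). Pkd2l1, a marker of sour cells, fell in mTEChi (-2.52).

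Some markers of other cell types were called between genotypes too, and their part in the receptor results was not tested. As a background, 17.1% of all genes rose and 19.3% fell in mTEChi. The shares were 18.9% and 15.8% in mTEClo, and 22.3% and 26.7% in cTEC. Several counts of these lists lie near those shares. Of 8 cTEC markers, 7 rose and 0 fell in each of the 3 subsets, and their sum ran from 2420 to 2760 CPM in KO and 1480 to 1610 CPM in WT mTEChi, 2250 to 2610 CPM in KO and 1690 to 2150 CPM in WT mTEClo, and 8820 to 13000 CPM in KO and 4090 to 6890 CPM in WT cTEC. Of 8 mTEC markers, 3 rose and 2 fell in mTEChi, 2 rose and 3 fell in mTEClo, and 1 rose and 5 fell in cTEC, where their sum was 5490 to 6490 CPM in KO and 6510 to 7010 CPM in WT. Of 10 thymocyte markers, 8 rose and 0 fell in cTEC (239 to 380 CPM in KO and 46.9 to 130 CPM in WT), 3 rose in mTEClo, and 1 rose and 1 fell in mTEChi. Of 9 tested macrophage and dendritic cell markers, 2 rose and 4 fell in mTEChi, 2 rose and 1 fell in mTEClo, and 1 rose and 4 fell in cTEC (57.5 to 81.1 CPM in KO and 152 to 222 CPM in WT). Of 9 tested mural, fibroblast and endothelial markers, 2 rose in each subset and 2, 3 and 6 fell in mTEChi, mTEClo and cTEC, with sums in cTEC of 2410 to 2550 CPM in KO and 1260 to 1400 CPM in WT. No gene of these lists or of the tuft list was at 0 reads over a whole group.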

How the data were processed

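RNA-seq was measured in 18 libraries. The deposited values were raw counts per gene, made by the authors with featureCounts on mm10 per the submitters' processing notes. The aligner and how multimapping reads were treated are not given in the sources used here. Per the labels' protocols, RNA was DNase-treated, cDNA was amplified with SMART-Seq v4, and Nextera XT libraries were read as 75-base paired ends, without strand or molecular identifiers.

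Members were taken by symbol. Counts of all 27179 genes entered library sizes, among them 1312 without a symbol. A filter (filterByExpr of edgeR 4.0.16 under R 4.3.3, minimum count 10) left 19364 genes, which were scaled by TMM and fitted in 6 groups (12 residual degrees of freedom). The filter did not ask for reads in every group, so a gene could enter through only the groups where it is high. Contrasts were tested with glmQLFTest, with Benjamini-Hochberg adjustment over all genes tested and a threshold of 0.05. CPM used TMM-scaled library sizes, and RPKM the gene lengths in the table. The smallest library, of 3554089 counts, limits detection, and a fold against 0 reads used a floor of 3 reads over a group. The fit was tested on simulated data.

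Alternatives were RLE scaling, no filter on low counts, DESeq2 1.42.0, only the compared groups, each library left out and, for subset comparisons, the mouse pool as a block. Per the labels, libraries with the same pool number came from the same mice, which pairs subsets within a genotype but not KO with WT. Deviations of same-pool libraries correlated between -0.001 and 0.239 over 18 pairs.

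Members and lists were chosen with earlier results of these data known. The rule for named genes was Kat7, every member (per-library values for tested members; the text gives a selection, and the heat map shows all), and up to 4 genes per list with the smallest adjusted p in KO against WT of mTEChi or mTEClo, of which some are not printed. Aire, Prss16, Dvl1 and Pou2f3 were named beyond it.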

Additional observations from a re-analysis of the deposited data

Results flagged for a closer look

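The KO effect differed between subsets, by a test of the difference itself (edgeR quasi-likelihood test, adjusted p below 0.05), for many receptors. Between mTEChi and mTEClo it did so for 6 of 33, each with a higher effect in mTEChi, namely Tas2r130 (log2 difference 3.78), Tas2r109 (3.06), Tas2r123 (2.19), Tas2r115 (1.71), Tas2r113 (1.19) and Tas2r105 (1.06). Tas2r130 rests on 2 reads in WT mTEChi. With some single libraries left out, Tas2r130 and Tas2r123 lost their calls (adjusted p up to 0.121 and 0.085).

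Between mTEChi and cTEC it differed for 28. Of these, 12 were called higher in KO mTEChi and lower in KO cTEC: Tas2r123 (6.36), Tas2r109 (6.02), Tas2r137 (5.68), Tas2r115 (4.96), Tas2r104 (4.72), Tas2r113 (4.34), Tas2r105 (4.25), Tas1r1 (4.13), Tas1r3 (4.03), Tas2r126 (3.95), Tas2r117 (3.94) and Tas2r108 (3.74).

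Between mTEClo and cTEC it differed for 29. Opposite calls were found for Tas1r3 (3.67), Tas2r108 (3.56), Tas1r1 (3.50), Tas2r126 (3.45), Tas2r117 (3.16) and Tas2r113 (3.15), each higher in KO mTEClo and lower in KO cTEC.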

How the results depend on the processing

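No called value changed sign under any alternative. Of 3787 values of single receptors under alternatives, 3683 kept their side of the threshold, 90 lost it and 14 gained it, and 14 uncalled values changed sign. These values cover every tested receptor in KO against WT, but only the called receptors in the other 9 comparisons. Calls gained by uncalled receptors in those 9, and their changes of sign, were not counted. Wherever they were tested, 12 of 13 calls in mTEChi, 14 of 17 in mTEClo and 33 of 33 in cTEC held in every alternative (KO against WT). With single libraries left out, members called ranged from 12 to 14 in mTEChi, 15 to 17 in mTEClo and 33 to 33 in cTEC. The ranges were 26 to 29 and 32 to 33 for mTEChi against mTEClo in KO and WT, 21 to 23 and 26 to 29 for mTEChi against cTEC, 31 to 32 and 9 to 19 for mTEClo against cTEC, and 5 to 8, 26 to 28 and 28 to 30 for the differences of KO effects. With the mouse pool as a replicate block, the counts of these 9 comparisons, in the same order, were 29, 33, 22, 28, 32, 14, 6, 27 and 29, and the block moved no count by more than 1.5 times. Its lost calls were Tas2r136 and Tas2r120 (mTEChi against cTEC in KO and WT), Tas2r140 (mTEClo against cTEC in WT) and Tas2r114 (KO effect in mTEChi against cTEC).

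With 5 reads as the minimum, 20.3 and 16.3 receptors were found per KO and WT mTEChi library and 14.7 and 32.7 per KO and WT cTEC library, and with 0.5 CPM 12.7 and 32.0 per KO and WT cTEC library. Without Tas1r3 the Tas1r sum averaged 12.3 and 4.06 CPM in KO and WT mTEChi, 19.6 and 9.5 in KO and WT mTEClo, and 1.58 and 8.90 in KO and WT cTEC. Without Tas2r105 the Tas2r sum averaged 97.0 and 40 CPM in KO and WT mTEChi, 398 in KO mTEClo, and 16 and 178 CPM in KO and WT cTEC, and with RLE scaling it was 19.6 CPM in KO cTEC. The 35 bitter receptors had fewest reads in KO cTEC (305 to 393 a library) and WT mTEChi (226 to 399 a library), which limits what can be told of single receptors there.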
